A study of Mus musculus with 9 samples.

Results

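The libraries of Smarca1 knockout cortex were compared with those of wild-type cortex, in mouse embryos at embryonic stage E13.5. The members were chosen by genotype label alone and make up 6 of the 9 libraries of the series, 3 per genotype. The knockout libraries are labelled Smarca1 -/- with no Cre allele (Cre -/-), and the wild-type (WT) libraries are labelled Smarca1 +/+, also Cre -/-. The other 3 libraries, labelled Smarca1 -/- and Cre +/-, are the double knockout (DKO) of Smarca1 and Smarca5. They entered the fit for its estimate of the spread, and their levels are given beside the others. The strain of all 9 is C57Bl/6, and the tissue is whole cortex or, in the design text, whole forebrain. The sources used here do not give the driver of the Cre, the deleted part of Smarca1 or the Smarca5 genotype of the Cre-negative groups. Nothing in the labels ties replicates to separate embryos, and the p-values then measure only the spread between these libraries, which may be technical.

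Smarca1 (SNF2L) and Smarca5 (SNF2H) are the motor subunits of ISWI complexes, chromatin remodellers that use ATP to slide nucleosomes and space them evenly along DNA. In the embryonic cortex, SMARCA5 is known for its part in dividing progenitors, and SMARCA1 for the turn from division to neuronal differentiation. Smarca1 lies on the X chromosome. At this stage radial glia line the ventricle and divide, and intermediate progenitors and the first projection neurons form above them.

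The question was which genes changed when Smarca1 alone was lost. Counts summed over genes were 37910823, 29581330 and 27466225 in knockout replicates 1 to 3 and 39423214, 28982243 and 30700992 in WT replicates 1 to 3. The genes that define dorsal cortex were present in all 6 libraries. Per transcript length, Pax6 of radial glia ranged from 106 to 142 TPM (Salmon's abundance scaled by transcript length and depth), Eomes of intermediate progenitors from 124 to 149.7 TPM, and Neurod6 of neurons from 312 to 445 TPM. Transcripts of other cells were present too, with Hbb-bs of red blood cells at 1199 to 1662 TPM and Ttr of choroid plexus at 292 to 598 TPM, while the astrocyte gene Gfap was at 0 to 0.148 TPM. Y-linked genes were expressed at like levels in all 9 libraries, with Eif2s3y between 77.2 and 85.1 CPM (counts scaled to library size).

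Smarca1 RNA was still present in the knockout, in the range of WT or near it. Its level was 42.3, 35.3 and 43.8 CPM in the knockout and 37.8, 36.4 and 37.3 CPM in WT. The groups overlapped, with knockout replicate 2 below every WT library and the other knockout libraries above them. The log2 fold change (knockout minus WT, in all that follows) was 0.12 (SE 0.073, adjusted p = 0.378). The transcript with the most counts, Smarca1-202, stood at 21.9, 18.9 and 21.8 CPM in the knockout and 21.6, 19.5 and 19.4 CPM in WT. As the deleted part is not given and RNA outside it can persist, these counts do not check the genotype label. Smarca5, its paralogue, was at 246, 243 and 212 CPM in the knockout and 267, 271 and 262 CPM in WT. All knockout libraries lay below all WT libraries, and the difference of −0.19 in log2 did not pass the test (SE 0.059, adjusted p = 0.159). None of the other 12 subunits of ISWI complexes passed it either. By edgeR 0 of the 14 ISWI genes were called, 8 were lower at an unadjusted p under 0.05 (9.55% of all genes tested were), and 2 were called lower by DESeq2, which called 5.07% of all genes in either direction. Their median log2 fold change was −0.14. Baz1b, the partner of SMARCA5 in the WICH complex, had the smallest p of the list, at −0.20 (SE 0.053, adjusted p = 0.14).

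Few genes passed the test. A gene is called here when its adjusted p in edgeR's quasi-likelihood test is under 0.05, and 53 of 15773 genes tested were called (0.336%). Of these, 22 rose (0.139%) and 31 fell (0.197%) in the knockout. Changes were mostly small: the median size was 0.58 in log2, 7 genes rose and 7 fell by more than 2-fold, and the other 39 changed by less. In all 53 genes the 3 knockout libraries lay wholly above or below the 3 WT libraries, which was so for 26.1% of all genes tested. The median log2 fold change of all genes was 0.010. An unadjusted p under 0.05 was found for 2978 genes (18.9%), 1472 higher and 1506 lower. DESeq2 called 706 of the 13930 genes to which it gave an adjusted p (5.07%). The count depended on single libraries. It was 31 without knockout replicate 3, 19, 14 and 21 without WT replicates 1, 2 and 3 in turn, and 38 without DKO replicate 2. It was higher without others, at 55 and 70 without knockout replicates 1 and 2, and 72 and 57 without DKO replicates 1 and 3. A core of 13 genes was called under each of the 16 alternatives set out for this comparison: the rises of Rps18, H2-T22, H2-T23, Dennd1c, Hccs, Msl3 and Prps2 and the falls of Gm10260, Gm11361, Gm6969, Gm13237, Pgk1-rs7 and Zfp868. An alternative added later summed near-identical copies, and all class I genes of the major histocompatibility complex. The sums that hold 8 of these 13 did not pass the test. Their adjusted p was 0.819 for Rps18, Gm10260 and Gm11361 together, 0.653 for Gm6969, 0.418 for Gm13237 and 0.225 for Pgk1-rs7. It was 0.0512 for the class I sum, which holds H2-T22 and H2-T23. That sum had the reverse sign, and most of its counts were those of H2-D1 and H2-K1. A gene that is a small part of its sum can change while the sum hardly moves, so such a sum does not test the gene alone. For comparison, 12% of the genes tested were called in DKO against WT and 4.39% in DKO against the knockout, comparisons that share these libraries.

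By edgeR the called genes lay unevenly along the genome. Chromosome X held 7 of its 553 tested genes (1.27%), chromosome 18 held 5 of 429 (1.17%), chromosome 17 held 9 of 791 (1.14%) and chromosome 8 held 8 of 792 (1.01%). DESeq2 called 37 genes on chromosome X, 29 on 18, 47 on 17 and 56 on 8, against 5.07% of all genes, so these chromosomes stood out less by DESeq2. By edgeR these 4 chromosomes together carried 29 of the 53 called genes. They carried 17 without knockout replicate 3, and 11, 9 and 12 without WT replicates 1, 2 and 3 in turn, and 16 without DKO replicate 2. By edgeR no gene was called on chromosomes 1, 10, 15 and 16, where the unadjusted p was under 0.05 for 162, 119, 126 and 87 genes and DESeq2 called 37, 19, 27 and 17. On chromosome 18 all 5 called genes were clustered protocadherins. On chromosomes X and 17 several of the called genes were near neighbours, while those on chromosome 8 were spread over 80.6 Mb.

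**Figure D1:**
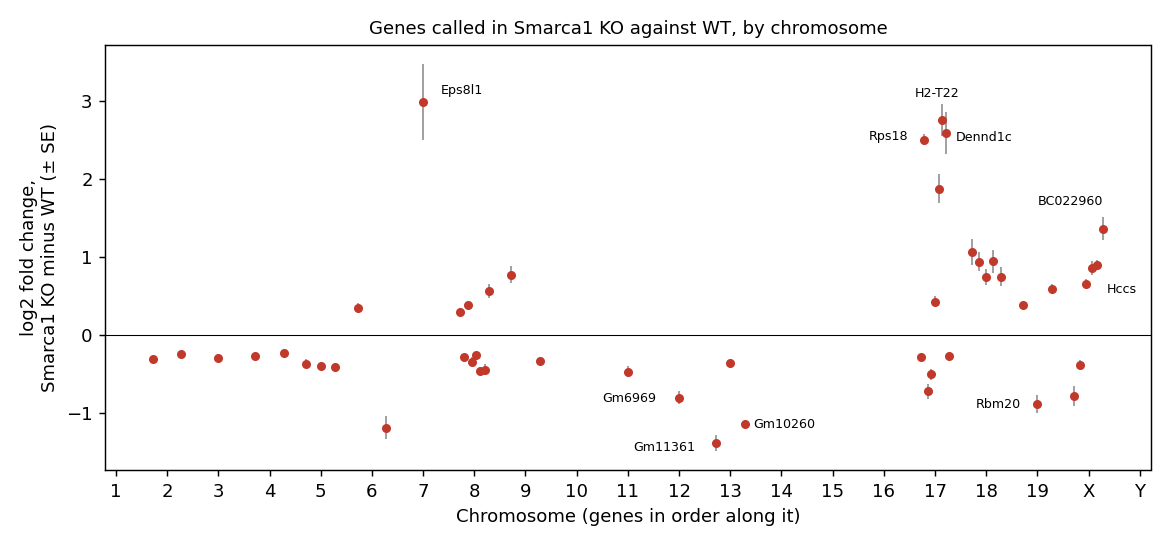
Genes called in Smarca1 knockout against WT, placed by chromosome (x axis, in order along each) and log2 fold change with its SE (y axis); 4 called genes at or near 0 counts in the knockout are left out. Chromosomes 17, 18 and X hold the tightest groups of rises, with Rps18 at 2.503 and Hccs at 0.89.

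Neighbouring genes at the distal end of the X chromosome rose. In this design the loss of Smarca1 cannot be told apart from any other difference in DNA sequence between the 2 groups of embryos, which holds for these neighbours, for the MHC region and for the near-identical copies below. Hccs encodes the synthase that joins haem to cytochrome c in mitochondria, Msl3 a chromodomain protein of the MSL histone acetyltransferase complex, and Prps2 an enzyme that makes phosphoribosyl pyrophosphate for nucleotide synthesis. Hccs (GRCm38 chromosome X, 169250193 to 169320372) was at 58.7, 59.7 and 51.6 CPM in the knockout and 29.2, 30.8 and 31.6 CPM in WT. Every knockout library was well above every WT library. Hccs rose by 0.89 in log2 (SE 0.063, adjusted p = 0.000321). Msl3 (168654117 to 168673898) was at 57.0, 62.6 and 50.3 CPM in the knockout and 31.6, 29.2 and 33.0 CPM in WT, again with no overlap. It rose by 0.86 (SE 0.085, adjusted p = 0.00267). Prps2 (167346322 to 167382749), at 35.9, 34.3 and 31.7 CPM in the knockout and 21.9, 21.0 and 21.7 CPM in WT, rose by 0.66 (SE 0.059, adjusted p = 0.00163). BC022960, a transcribed processed pseudogene just beyond Hccs (169368189 to 169370003) that was chosen after its values were seen, was at 7.61, 7.03 and 9.76 CPM in the knockout and 2.97, 3.09 and 3.43 CPM in WT. It rose by 1.36 (SE 0.15, adjusted p = 0.00516), and was not called without WT replicate 1 or without WT replicate 2, its adjusted p reaching at most 0.0542.

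The genes between them also had positive log2 fold changes. From Tmsb4x to Mid1, a stretch of 2.8 Mb up to the edge of the pseudoautosomal region, which Mid1 spans in the mouse, 9 genes were tested. All 9 had a log2 fold change above 0, with a median of 0.86, and 4 were called (44.4%). The stretch was drawn around genes already seen to rise, which raises that share and favours 1 direction. Frmpd4, which encodes a scaffold protein of dendritic spines, lay between Prps2 and Msl3. It was at 3.51, 1.98 and 4.30 CPM in the knockout and 1.10, 1.07 and 1.24 CPM in WT, and missed the threshold (log2 fold change 1.52, SE 0.27, adjusted p = 0.0564). Arhgap6, which shares sequence with Hccs, was at 1.01 (SE 0.32, adjusted p = 0.169). The outer 2 genes differed least, with Tmsb4x and Mid1 both at 0.23 (adjusted p = 0.106 and 0.457). In the 5 Mb before Tmsb4x, by edgeR 0 of 24 tested genes were called, 3 were higher at an unadjusted p under 0.05, and DESeq2 called 0. Over all genes tested, 9.33% were higher and 9.55% lower at that threshold, and DESeq2 called 5.07% of all genes. Genes around Smarca1 itself, on another part of the same chromosome, showed no such run. Within 5 Mb on either side, edgeR called 0 of 30 tested genes, and the log2 fold change was above 0 for 14 of them. At an unadjusted p under 0.05, 3 were higher and 5 lower, and DESeq2 called 3, beside the same shares over all genes. The lowest log2 fold change there was −0.68 and the highest 0.73. Of the 31-mers of Hccs 25.1% also occur in the overlapping gene Arhgap6, so that the counts of these 2 genes are not independent, while Msl3 (0.1%) and Prps2 (0.4%) share almost none.

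The DKO libraries, which carry the same Smarca1 label, had like levels of these genes. Hccs was at 56.7, 54.1 and 55.8 CPM there, Msl3 at 57.3, 50.7 and 55.2 CPM, and Prps2 at 38.0, 39.9 and 37.6 CPM. All lay above the WT libraries. BC022960 was at 8.43, 8.87 and 10.3 CPM. Since WT enters both comparisons, the log2 fold changes of DKO against WT, 0.86 for Hccs (adjusted p = 0.000212) and 0.80 for Msl3 (adjusted p = 0.00132), are not independent of those above.

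**Figure D2:**
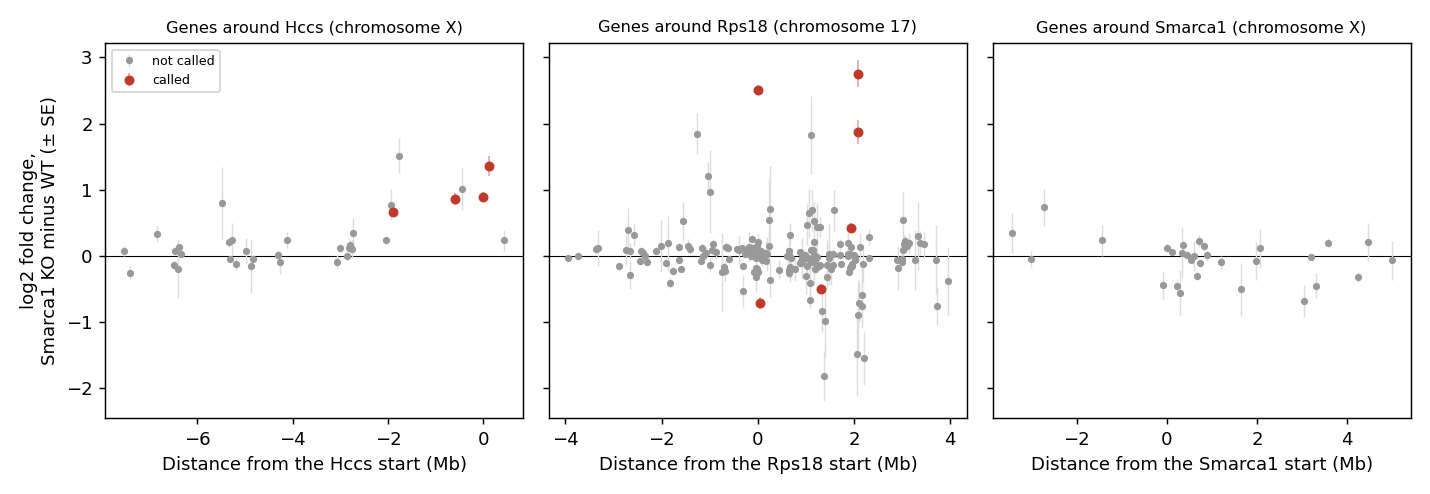
Log2 fold change (y axis, with SE) of all genes tested around Hccs, Rps18 and Smarca1, by distance from the start of each (x axis, Mb); red marks called genes. On the X chromosome the called genes lie within 2.0 Mb of each other and all above 0, called genes around Rps18 lie on both sides of 0, and no gene around Smarca1 is called.

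Around the major histocompatibility complex (MHC) on chromosome 17, genes moved in both directions. From Rps18 to H2-T22, a stretch of 2.1 Mb, 92 genes were tested, of which 4 rose and 2 fell (6.52%). Called genes were chosen as both ends of the stretch, which raises that share. Over all genes tested, 0.336% were called. Without the class I genes, 80 were tested, of which 2 rose, Rps18 among them, and 0 fell (2.5%). In the whole stretch 8 were higher and 15 lower at an unadjusted p under 0.05, against 9.33% and 9.55% of all genes tested. H2-K1 and H2-D1 encode the classical class I molecules, which present peptides at the cell surface, and H2-T23 and H2-T22 encode non-classical ones. H2-K1 (33996017 to 34000347) was at 13.4, 11.2 and 11.3 CPM in the knockout and 20, 18.1 and 20.9 CPM in WT. H2-D1 (35262730 to 35267499) was at 26.8, 22.1 and 26.4 CPM in the knockout and 34.4, 36.5 and 35.8 CPM in WT. The knockout libraries were the lower ones for both genes, without overlap. H2-K1 fell by 0.72 in log2 (SE 0.094, adjusted p = 0.0153) and H2-D1 fell by 0.50 (SE 0.071, adjusted p = 0.0225). With offsets for effective transcript length neither was called, nor was either without WT replicate 1 or without WT replicate 3, and H2-D1 was not called without WT replicate 2, with only the 6 libraries compared, with the replicate block or with the Y-linked covariate.

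The non-classical genes went the other way. H2-T23 (36029773 to 36032855) was at 4.29, 4.23 and 4.63 CPM in the knockout and 1.08, 1.04 and 1.47 CPM in WT. H2-T22 (36037128 to 36042747) was at 3.85, 3.58 and 4.15 CPM in the knockout and 0.538, 0.520 and 0.654 CPM in WT. Both were several times higher in each knockout library than in any WT library. H2-T23 rose by 1.87 (SE 0.18, adjusted p = 0.00265) and H2-T22 by 2.75 (SE 0.20, adjusted p = 0.000384). Class I genes resemble each other, and 22.8% to 51.7% of the 31-mers of these 4 genes occur in other genes, most for H2-T22, whose nearest relative is H2-T10. Counts summed over all class I genes were 65.6, 56.4 and 63.5 CPM in the knockout and 77.8, 77.8 and 79.1 CPM in WT, and differed by −0.34 in log2 without passing the test (SE 0.054, adjusted p = 0.0512). Of the 25 tested genes of the interferon response and class I list, which does not hold H2-T22 or H2-T23, only H2-K1 and H2-D1 were called, and the median was −0.055. DKO did not share the low levels of the knockout: H2-K1 was at 28.2, 25.4 and 25.2 CPM there and H2-D1 at 49.5, 50.4 and 50.5 CPM, above WT, while H2-T22 was at 0.330, 0.486 and 0.392 CPM, below WT. H2-T23, at 1.71, 2.07 and 2.11 CPM in DKO, was above WT and below the knockout.

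H2-T22 and the other called genes on chromosome 17 described next were chosen after their values were seen. Dennd1c, which encodes an exchange factor for Rab GTPases and lies farther along (57065905 to 57078514), was at 5.35, 3.31 and 4.15 CPM in the knockout and 0.768, 0.867 and 0.490 CPM in WT. The knockout libraries were far above the rest, and Dennd1c rose by 2.59 (SE 0.27, adjusted p = 0.00388). Only 2.1% of its 31-mers are shared. It stood at 0.744, 0.550 and 0.544 CPM in DKO. The remaining changes on this chromosome were small: 2310061I04Rik rose by 0.43, and Spaca6 and the small GTPase gene Rab31 fell by 0.28 and 0.27. None of these 3 was called without knockout replicate 3 or without any one WT replicate, and their adjusted p reached 0.214 at most.

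Rps18, which encodes a protein of the small ribosomal subunit, rose, and near-identical genes elsewhere fell. Rps18 (ENSMUSG00000008668.15, chromosome 17, 33951999 to 33956001) was at 229, 245 and 209 CPM in the knockout and 43.7, 38.1 and 38.5 CPM in WT. Every knockout library was far above every WT library, and Rps18 rose by 2.503 in log2 (SE 0.076, adjusted p = 4.98e-07). Gm10260 and Gm11361, intronless copies on chromosome 13 chosen after their values were seen, carry almost the same coding sequence. Gm10260 (97760072 to 97760632) was at 102.2, 106 and 97.0 CPM in the knockout and 218, 224 and 229.8 CPM in WT. Gm11361 (28257528 to 28258134) was at 40.4, 52.0 and 38.9 CPM in the knockout and 108, 118 and 116 CPM in WT. Both fell, Gm10260 by 1.14 (SE 0.05, adjusted p = 8.97e-06) and Gm11361 by 1.38 (SE 0.10, adjusted p = 0.000384).

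Summed over Rps18 and its 8 copies, the counts did not move. The sums were 385, 416 and 352 CPM in the knockout and 385, 394 and 400.1 CPM in WT, with knockout libraries on both sides of WT (log2 fold change −0.03, SE 0.062, adjusted p = 0.819). What differed was the split of the counts among these genes. Whether this reflects expression or the assignment of reads was not tested. Within Rps18, the full-length transcript Rps18-201 held 7696, 6363 and 4951 estimated counts in the knockout and 384, 0 and 0 in WT. A retained-intron transcript of Rps18, whose intron the spliced copies lack, held 8.84, 10.3 and 9.37 CPM in the knockout and 10.8, 9.85 and 8.96 CPM in WT, with overlap. In DKO, Rps18 was at 43.7, 41.3 and 39.5 CPM, as in WT.

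**Figure D3:**
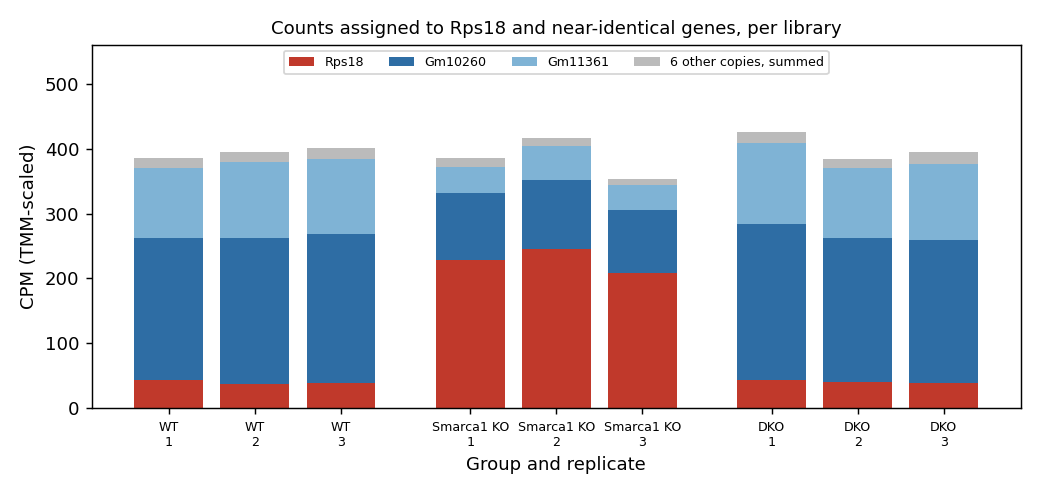
Counts assigned to Rps18, to its copies Gm10260 and Gm11361 and to 6 other copies (stacked bars, CPM) in each of the 9 libraries. The bars have like heights, between 352 and 425 CPM when all 9 genes are summed, but the Rps18 share is large only in the 3 Smarca1 knockout libraries.

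The sequences show how little separates these genes. Over the 459 coding bases of Rps18-201, Gm10260 is 99.1% identical, with 4 differences, and Gm11361 is 99.3% identical, with 3. Positions are counted from 1 at the first base of Rps18-201. The differences of Gm10260 are T243C, A394C, G428A and G488A, and those of Gm11361 are T68A, A228C and A394C, so that A394C is common to both. The stretch from position 361 to 500, from GENCODE M21 (GRCm38), is printed because it holds the difference that both copies have in common, with capitals at the bases that differ between Rps18 and a copy.
Rps18: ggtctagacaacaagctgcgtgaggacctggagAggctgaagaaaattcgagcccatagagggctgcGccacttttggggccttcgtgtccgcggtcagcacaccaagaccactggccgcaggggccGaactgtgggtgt
Gm10260: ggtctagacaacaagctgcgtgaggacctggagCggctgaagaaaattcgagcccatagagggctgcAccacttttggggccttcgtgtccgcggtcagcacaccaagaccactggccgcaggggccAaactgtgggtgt
Gm11361: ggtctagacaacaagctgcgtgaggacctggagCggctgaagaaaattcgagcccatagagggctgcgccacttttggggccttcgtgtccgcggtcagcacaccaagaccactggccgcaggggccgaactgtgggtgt
A read from the coding sequence that covers none of the differing bases fits all 3 genes equally. Of the 31-mers of Gm10260 78.2% occur in other genes, of Gm11361 75.2% and of Rps18, whose transcripts include introns, 27.4%.

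Several further called genes are copies of another gene, and all were chosen after their values were seen except Pgk1-rs7 and Xlr3c. Pgk1-rs7, a processed copy of the glycolytic enzyme gene Pgk1, had 0 counts in all 3 knockout libraries and 7.68, 8.60 and 6.27 CPM in WT. Against a floor of 3 counts per library, which covers counting error only, the count assigned to it was at least 77.9-fold lower. Its whole transcript of 1255 bases occurs within Pgk1-201, and it held 982 counts in DKO. A read from Pgk1-rs7 therefore fits Pgk1 equally, so this fold does not bound a change in its expression. Pgk1 itself was at 311, 330.4 and 259 CPM in the knockout and 322, 346 and 352 CPM in WT, and the sum of Pgk1 and its copies differed by −0.21 (SE 0.082, adjusted p = 0.225). Gm7324, a copy of the RNA-binding protein gene Rbmxl1, had 0 counts in the knockout and in DKO and 2.56, 2.60 and 2.88 CPM in WT, at least 27.7-fold lower in the knockout. Gm13237, a copy of the chromatin protein gene Hmgb2, had 5 counts over the knockout libraries and 5.10, 4.68 and 6.08 CPM in WT. Xlr3c, of the X-linked lymphocyte-regulated family, had 1 count in the knockout and 0.768, 1.56 and 0.719 CPM in WT. Both also had very few counts in DKO, 2 for Gm13237 and 1 for Xlr3c. Of the 31-mers of these 4 genes between 78.4% and 100% are shared. Gm7324 was not called without WT replicate 1 or 2, nor Xlr3c without knockout replicate 3 or WT replicate 2. None of the summed families passed the test: Rbmxl1 and copies were at −0.0017 (adjusted p = 0.988), Hmgb2 and copies at −0.16 (adjusted p = 0.418) and the Xlr3 genes at 0.013 (adjusted p = 0.99). The 4 genes are small parts of these sums. In WT, Pgk1-rs7 averaged 7.52 CPM beside 340 CPM of Pgk1, and Gm13237 5.28 CPM beside 288 CPM of Hmgb2. Their loss would hardly move the sums, which therefore do not test whether these genes changed.

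A further pair had smaller differences. Gm6969, a copy of the respiratory chain gene Cox7a2l, was at 7.77, 9.38 and 8.85 CPM in the knockout and 14.8, 15.6 and 14.9 CPM in WT, and fell by 0.80 (SE 0.084, adjusted p = 0.00388). Summed with Cox7a2l, the difference was −0.04 (adjusted p = 0.653). Gm48348, which shares 59.5% of its 31-mers with D10Wsu102e, was at 29.1, 30.5 and 22.04 CPM in the knockout and 15.8, 16.2 and 15.8 CPM in WT, and rose by 0.77 (SE 0.11, adjusted p = 0.0225). Summed with D10Wsu102e, it was at 0.0034 (adjusted p = 0.977). Gm6969 and Gm48348 are small parts of these sums, which therefore do not test them alone. Gm48348 was not called without knockout replicate 1 or any one WT replicate. When near-identical copies, and all class I genes, were summed before the fit, 19 genes were called, 10 higher and 9 lower.

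Clustered protocadherins are adhesion molecules that give neurons individual surface identities, and of their 3 clusters the beta cluster differed most between the groups by its median. The beta cluster lies on chromosome 18 (37294812 to 37524479), and its genes each consist of a single exon with a promoter of its own. Of 21 beta genes tested, Pcdhb11, Pcdhb17, Pcdhb19 and Pcdhb20 rose and none fell. Pcdhb17 was at 14.9, 14.8 and 16.8 CPM in the knockout and 9.19, 6.69 and 8.24 CPM in WT, and rose by 0.94 (SE 0.13, adjusted p = 0.0176). Pcdhb19 was at 8.50, 9.28 and 9.40 CPM in the knockout and 5.25, 5.86 and 5.16 CPM in WT, and rose by 0.74 (SE 0.10, adjusted p = 0.0215). Pcdhb20, at 11.1, 10.3 and 13.4 CPM in the knockout and 6.33, 5.79 and 5.92 CPM in WT, rose by 0.94 (SE 0.15, adjusted p = 0.0372). All knockout libraries were above all WT libraries in these genes. Pcdhb11, the least abundant of the 4, was at 4.11, 4.44 and 4.23 CPM in the knockout and 2.33, 1.91 and 1.83 CPM in WT, and rose by 1.07 (SE 0.17, adjusted p = 0.0387).

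All 21 beta genes had a log2 fold change above 0, from 0.16 for Pcdhb4 to 1.84 for Pcdhb12, and 17 of them had an unadjusted p under 0.05, against 9.33% of all genes tested. Their median was 0.74. The list was chosen with this pattern in view, so its direction is no independent evidence. Summed over the 21 genes, the level was 120.4, 109 and 138 CPM in the knockout and 77.8, 69.6 and 70.5 CPM in WT. The knockout sum was thus above WT in every library, with means of 122.5 ± 14.5 and 72.6 ± 4.49 CPM (SD, n = 3 each). DKO was the lowest group at 41.5, 55.2 and 55.4 CPM. The calls depended on the libraries: none of the 21 was called without knockout replicate 3, without WT replicate 2 or without WT replicate 3, 1 was without WT replicate 1, and 2 were without knockout replicate 1 or without DKO replicate 2, whereas the median stayed between 0.705 and 0.796. DESeq2 called 11 of the 21, against 5.07% of all genes. Between 5.9% and 16.8% of the 31-mers of the 4 called genes occur in other genes, in most part in other members of the cluster.

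The neighbouring clusters on the same chromosome moved less. By edgeR 0 of 14 alpha protocadherins were called, with a median of 0.52. Of the 14, 5 were higher at an unadjusted p under 0.05, against 9.33% of all genes tested. DESeq2 called 1, against 5.07% of all genes. Pcdha11 had the smallest p, with 7.33, 9.38 and 12.3 CPM in the knockout and 5.51, 6.07 and 4.71 CPM in WT (log2 fold change 0.83, SE 0.18, adjusted p = 0.0982). Of 22 gamma protocadherins 1 rose, and their median was 0.0079. This was Pcdhgc4, the isoform known to keep cortical interneurons alive, at 51.2, 50.6 and 63.0 CPM in the knockout and 29.4, 29.6 and 39.1 CPM in WT. It rose by 0.75 (SE 0.12, adjusted p = 0.0422), and 37.4% of its 31-mers, those of the constant exons, occur in the other gamma genes. It was not called without any one knockout replicate, without WT replicates 1 or 2, or without DKO replicates 2 or 3. In DKO it stood at 54.2, 60.6 and 61.1 CPM. Summed over the 22 genes, the gamma cluster was at 610.2 ± 55.1 CPM in the knockout and 607.8 ± 14.0 CPM in WT (SD, n = 3 each). Pcdh19, an X-linked protocadherin outside the clusters whose loss causes an epilepsy in females, went the other way. It was at 98.9, 96.8 and 86.3 CPM in the knockout and 120.1, 123 and 125 CPM in WT, and fell by 0.38 (SE 0.06, adjusted p = 0.0372). It was not called without knockout replicates 2 or 3, any one WT replicate or DKO replicate 2.

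**Figure D4:**
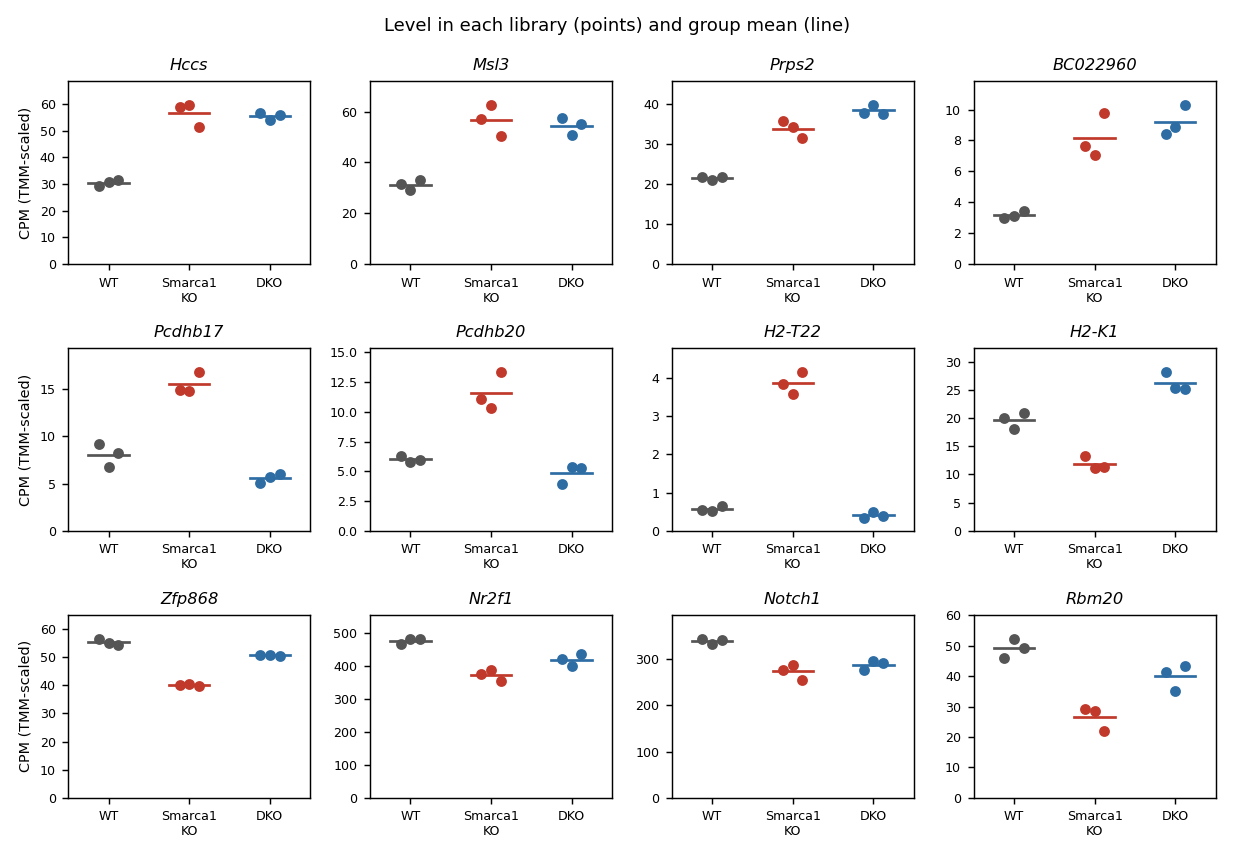
Level of 12 of the called genes in each library (points, TMM-scaled CPM) with the group mean (line), for WT, Smarca1 knockout and DKO. The X-linked genes in the top row are high in both knockout groups, while Pcdhb17, Pcdhb20 and H2-T22 are high in the Smarca1 knockout alone of the 3 groups.

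Several small falls were of genes that regulate transcription, signalling or RNA silencing, a grouping that rests on no list and no test. Nr2f1, a nuclear receptor that patterns cortical areas and was chosen after its values were seen, was at 377, 388 and 355 CPM in the knockout and 467, 483 and 482 CPM in WT. It fell by 0.35 (SE 0.047, adjusted p = 0.0158). Notch1, the receptor that keeps radial glia from differentiating, was at 277, 288 and 255 CPM in the knockout and 344, 332 and 342 CPM in WT. It fell by 0.31 (SE 0.05, adjusted p = 0.0387). Both were lower in every knockout library than in any WT library. Nr2f1 was not called without any one WT replicate. Zfp868, a zinc finger gene on chromosome 8, was at 40.1, 40.6 and 39.7 CPM in the knockout and 56.5, 55.0 and 54.4 CPM in WT. The replicates lay close together, and Zfp868 fell by 0.46 (SE 0.039, adjusted p = 0.000919). It was the only one of 342 Zfp genes to be called, and the median of these was 0.014. Epop, a Polycomb-associated factor, fell by 0.47 (adjusted p = 0.0387), and of 2 genes chosen after their values were seen Asxl1, another Polycomb-related gene, fell by 0.24 (adjusted p = 0.0241) and Ago1, an Argonaute of the RNA silencing complex, by 0.23 (adjusted p = 0.0387). None of these 3 was called without knockout replicates 1 or 3 or without any one WT replicate.

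Other falls were of genes with varied roles. Rbm20, a splicing regulator best known from heart muscle, was at 29.3, 28.5 and 21.8 CPM in the knockout and 45.9, 52.3 and 49.2 CPM in WT. The groups lay far apart, and Rbm20 fell by 0.88 (SE 0.12, adjusted p = 0.0164). Vmn1r43, annotated as a vomeronasal receptor, was at 13.49, 13.6 and 9.51 CPM in the knockout and 29.2, 28.7 and 25.8 CPM in WT, and fell by 1.19 (SE 0.15, adjusted p = 0.0108). Its level in DKO, 15.4, 11.7 and 12.7 CPM, was also below WT. Cad, which starts pyrimidine synthesis, fell by 0.40 (adjusted p = 0.0225), the calcium-activated potassium channel gene Kcnn1 by 0.44 (adjusted p = 0.0372) and the pseudouridine synthase gene Pus7 by 0.36 (adjusted p = 0.0372). Arhgap4, on the X chromosome, fell by 0.78 (adjusted p = 0.0425). It overlaps Avpr2, in which 26.3% of its 31-mers occur. Falls between 0.26 and 0.41 of genes chosen after their values were seen were those of Ptprf, a receptor tyrosine phosphatase, Pcm1 of centriolar satellites, Coro2b, Ptgfrn, the palmitoyltransferase gene Zdhhc2, 2900026A02Rik and 6820431F20Rik. Of the genes in this paragraph, none was called without WT replicate 2, none but Ptprf without WT replicate 1, and none but Vmn1r43 without WT replicate 3, while Rbm20, Vmn1r43 and 2900026A02Rik were called without any one of the knockout or DKO libraries.

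Among the rises outside the clusters, Csf2ra and Mri1 met the rule for named genes. Csf2ra, the alpha chain of a myeloid cytokine receptor, was at 22.9, 23.7 and 25.5 CPM in the knockout and 16.2, 16.05 and 15.8 CPM in WT, and rose by 0.58 (SE 0.064, adjusted p = 0.00503). Mri1, an enzyme of methionine salvage, was at 17.3, 16.2 and 15.6 CPM in the knockout and 10.1, 11.1 and 12.1 CPM in WT, and rose by 0.57 (SE 0.086, adjusted p = 0.0346). Knockout and WT libraries did not overlap in either gene. Csf2ra was not called without WT replicate 2 or with offsets for effective length, and Mri1 without any one knockout or WT replicate or without DKO replicate 2. Mri1 was the only called gene of 90 tested within 5 Mb of Smarca5. Eps8l1, a regulator of actin related to Eps8, was scarce, with 2.86, 3.51 and 3.64 CPM in the knockout and 0.640, 0.416 and 0.163 CPM in WT, and rose by 2.99 (SE 0.48, adjusted p = 0.0407). It was called in 7 of the 16 alternatives. Eps8l1 and 4 genes with rises between 0.30 and 0.39 were chosen after their values were seen: Arl3, a GTPase of cilia, Saraf, which limits store-operated calcium entry, Scrn1 and Trappc5 of a vesicle tethering complex. None of these 5 was called without any one WT replicate.

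By edgeR no list of progenitor, cell cycle or neuronal genes held more than 1 called gene, while DESeq2 called more in several. In this bulk tissue, fewer cells of a type and less RNA per cell cannot be told apart. Of 26 Notch pathway genes, edgeR called Notch1 alone, and 13 had an unadjusted p under 0.05, all lower, against 9.55% of all genes tested. DESeq2 called 5 of them, all lower, against 5.07% of all genes in either direction. The median was −0.17. Other receptors and a target, named after their values were seen, were Notch3 at −0.41 (SE 0.084, adjusted p = 0.0807), Notch2 at −0.29 (SE 0.067, adjusted p = 0.104) and Hes1 at −0.43 (SE 0.11, adjusted p = 0.123). Of 29 radial glia genes, edgeR again called only Notch1, 17 were lower and 4 higher at an unadjusted p under 0.05, and the median was −0.21. Over all genes tested, 9.55% were lower and 9.33% higher at that threshold. DESeq2 called 12 radial glia genes lower and 1 higher, against 5.07% of all genes in either direction. Notch1 was not called without knockout replicates 1 or 3, any one WT replicate or DKO replicates 2 or 3, and in 5 of the 16 alternatives it was.

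Cell cycle genes were lowest in a single library. By edgeR 0 of 37 G1/S and DNA replication genes and 0 of 38 G2/M genes were called, with 22 and 24 lower at an unadjusted p under 0.05, against 9.55% of all genes tested, and DESeq2 called 7 and 6 lower, against 5.07% of all genes in either direction. Their medians were −0.25 and −0.27. A list's score in a library is the mean log2 CPM difference of its members from the mean of the 9 libraries. The G1/S score was 0.01, 0.04 and −0.37 in knockout replicates 1 to 3 and 0.13, 0.13 and 0.20 in WT, and the G2/M score 0.00, 0.02 and −0.41 in the knockout and 0.13, 0.12 and 0.17 in WT. Knockout replicate 3 stood far below the other 5 libraries, and without it the medians were −0.14 for both lists. The genes with the smallest p were Chaf1a, a histone chaperone of replication, at 88.3, 91.5 and 71.5 CPM in the knockout and 111, 108 and 112 CPM in WT (log2 fold change −0.40, SE 0.082, adjusted p = 0.0833), and Cdc25c, a phosphatase of mitotic entry, at −0.35 (SE 0.099, adjusted p = 0.147).

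Neuronal genes leaned the other way, with the same library at the extreme. By edgeR 0 of 41 synapse and excitability genes were called, 16 were higher at an unadjusted p under 0.05 and none lower, against 9.33% and 9.55% of all genes tested, and DESeq2 called 0. The median was 0.25, and 0.092 without knockout replicate 3. Their score was −0.07, −0.10 and 0.31 in the knockout and −0.14, −0.21 and −0.21 in WT. For projection neurons edgeR called 0 of 31 genes, 8 were higher and 1 lower at an unadjusted p under 0.05, against the same shares, DESeq2 called 2, and the median was 0.16, or 0.077 without that library. Stmn2, a tubulin regulator of growing axons, had the smallest p of that list, with 335, 347 and 454 CPM in the knockout and 279.6, 268 and 282 CPM in WT (log2 fold change 0.45, SE 0.10, adjusted p = 0.105). The part of knockout replicate 3's position in these medians was measured only by leaving it out.

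**Figure D5:**
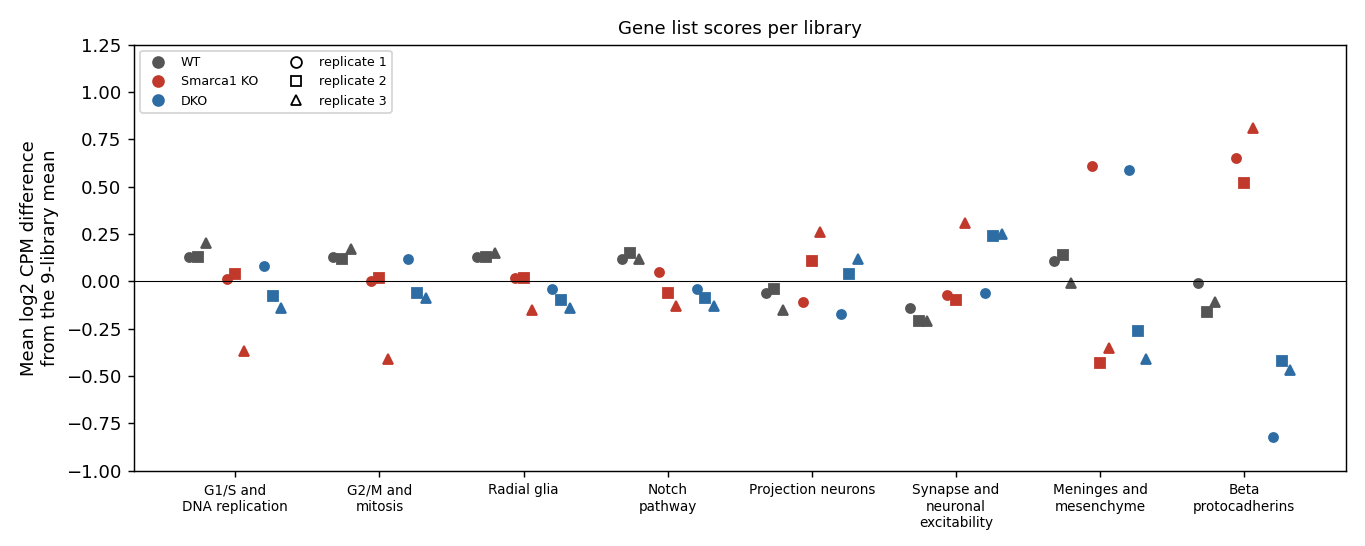
Score of 8 gene lists (mean log2 CPM difference from the 9-library mean, y axis) in each library, coloured by group and marked by replicate. Knockout replicate 3 is lowest for both cell cycle lists, at −0.37 and −0.41, and highest for synapse genes, at 0.31, while the beta protocadherins separate all 3 groups.

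Markers of cells around the cortex varied more within the knockout than between the groups. Summed over 24 genes of meninges and mesenchyme, the level was 1596, 824 and 887 CPM in knockout replicates 1 to 3 and between 1191 and 1318 CPM in WT, with 0 genes called by edgeR, 2 lower at an unadjusted p under 0.05 and 1 called by DESeq2. Knockout replicate 1 was the highest and the other knockout libraries the lowest of the 6. Blood genes summed to 1675, 1515 and 1105 CPM in the knockout and 1449 to 1923 CPM in WT, and endothelial and mural genes to 816, 577 and 630 CPM and 696 to 734 CPM. For blood, edgeR and DESeq2 called 0 of 15 genes and 0 had an unadjusted p under 0.05. For endothelial and mural cells, edgeR called 0 of 26, the unadjusted p was under 0.05 for 3 and DESeq2 called 1. Over all genes tested, the unadjusted p was under 0.05 for 18.9% (9.55% lower), and DESeq2 called 5.07% of all genes. The part of meningeal, blood and vascular cells in the results above was not tested.

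Remaining lists held few calls or none, and their counts stand beside shares over all genes tested of 9.33% higher and 9.55% lower at an unadjusted p under 0.05 and 5.07% called by DESeq2. Of 76 nuclear genes of oxidative phosphorylation edgeR called 0, 20 were higher and 1 lower at an unadjusted p under 0.05, DESeq2 called 4, and the median was 0.10. Ndufb10, a subunit of complex I, came closest with 44.8, 45.03 and 47.1 CPM in the knockout and 37.8, 39.3 and 37.7 CPM in WT (log2 fold change 0.25, SE 0.046, adjusted p = 0.0577). Of 13 mitochondrially encoded genes edgeR called 0, with 2 higher and 2 lower at an unadjusted p under 0.05 and 2 called by DESeq2. The complex I gene mt-Nd3 was at 8.47, 4.54 and 6.23 CPM in the knockout and 67.4, 52.97 and 25.5 CPM in WT, the widest gap of that list, and missed the threshold (log2 fold change −2.91, SE 0.52, adjusted p = 0.0574). It was at 6.58, 26.3 and 10.9 CPM in DKO. Of 81 cytoplasmic ribosomal protein genes Rps18 alone was called, and the median was 0.031. Among 33 other chromatin remodelling genes edgeR called 0, with 2 higher and 11 lower at an unadjusted p under 0.05 and 7 called by DESeq2; Smarcc1, a core subunit of the BAF complexes, was at 333, 328 and 309 CPM in the knockout and 387, 388 and 371 CPM in WT (log2 fold change −0.24, SE 0.042, adjusted p = 0.0564). Targets of p53 had a median of 0.033, with 0 of 33 called by edgeR, 3 higher and 4 lower at an unadjusted p under 0.05 and 1 called by DESeq2.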

How the data were processed

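RNA of E13.5 cortex was sequenced as stranded mRNA libraries, 3 per genotype, and replicate numbers are those of the titles. The authors deposited, per the file headers, estimated counts and TPM per transcript, quantified by Salmon 1.4.0. That version, the build mm10 and DESeq2 stand in the submitters' processing notes. Deposited TPM served for levels per length. The sources used here do not give Salmon's index or strand setting, and overlapping antisense genes cannot be told apart.

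Of 116546 transcripts 115977 matched GENCODE M21; the 569 others held 0.104% to 0.116% of reads. Estimated counts were summed over transcripts to 35498 genes and rounded. edgeR 4.0.16 (limma 3.58.1, R 4.3.3) fitted all 9 libraries (TMM, filterByExpr, quasi-likelihood F test), and p-values were adjusted by Benjamini-Hochberg over 15773 genes. SE is the size of the log2 fold change divided by the square root of F, and levels are TMM-scaled CPM. The script was tested on simulated data. DESeq2 1.42.0 was an alternative, beside other scaling, no filter, length offsets, a replicate block, a Y-linked covariate and leaving out each library.

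The members and the 42 gene lists were chosen with earlier results of these data known. The genes named are Smarca1 and Smarca5, then by size of log2 fold change 12 rises and 12 falls that were called, had groups without overlap, averaged 1 or more in log2 CPM and bear no symbol of a predicted model, and from each list up to 4 called members or the 1 with the smallest p; results of lists without a call are given where they bear on cortex. Sequence sharing is the percent of a gene's 31-mers found in transcripts of other genes.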

Additional observations from a re-analysis of the deposited data

How the results depend on the processing

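Of the 53 called genes none changed sign under the 16 alternatives set out for the comparison. DESeq2 called 706 genes (256 higher, 450 lower), no filter on low counts 90 (36 and 54), the replicate block 29 (14 and 15) and the Y-linked covariate 28 (14 and 14). Near-identical copies and all class I genes summed, an alternative chosen after seeing the data, gave 19 (10 and 9). Leaving out 1 library gave 14 to 72 called genes, 7 to 32 higher and 7 to 41 lower. On chromosomes 8, 17, 18 and X, 29 genes were called, against 169 by DESeq2, which called 5.07% of all genes. The count there was 14 with the block, 14 with the Y-linked covariate, 9 with copies summed and 9 to 33 leaving out 1 library. Of list members 11 were called, against 123 by DESeq2, 18 with no filter, 7 with effective-length offsets, 6 with the block, 6 with the Y-linked covariate, 3 with copies summed and 3 to 15 leaving out 1 library: 4 without knockout replicate 3, 4, 3 and 4 without WT replicates 1, 2 and 3. Over all genes, edgeR called 0.336% and DESeq2 5.07%. No share of the list members was worked out, so these counts show only how the calls shifted. Fewer genes fell without DKO replicate 2 (20). Copies summed reversed Rps18 (−0.032), H2-T22 and H2-T23 (both −0.34, the class I sum) and Xlr3c (0.013). The class I and Xlr3 sums rest mostly on other members, so they do not test these genes alone. With only the 6 libraries compared, 62 genes were called, 34 of them among the 53; RLE scaling gave 52 and length offsets 38. The cause of these shifts was not tested.

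The replicate block rests on numbers that do not pair the libraries: deviations of same-numbered knockout and WT libraries correlated at −0.039, 0.025 and 0.033, and libraries share only a number. Depth was 27466225 counts or more per library. The common estimate by edgeR of the variation between libraries of a group, beyond counting error, was 10.2%. The groups were not equal in this. Between 2 libraries of a group, the chi-square of their counts per degree of freedom was 3.62 to 5.07 in WT. It was 11.56 to 22.34 in the knockout and 9.01 to 22.79 in DKO. The fit used 1 estimate of the spread for all groups, though WT libraries differed least.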
